A study of Mus musculus with 2 samples.

Results

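S100 proteins are small calcium-binding proteins of vertebrates, and 8 of their genes were examined in CD11b+ cells from pancreatic tumours of mice: S100a1, S100a4, S100a6, S100a8, S100a9, S100a10, S100a11 and S100a13. They were taken by symbol from the 49585 genes of the deposited count table, and all 8 were found. Beads against CD11b, an integrin chain (gene Itgam) of the myeloid lineage, had captured the cells from dissociated tumours. The tumours grew under the skin from mouse pancreatic cancer cell lines that the labels do not name. Every host had the genotype NRP2f/fCSF1R-iCRE on a BL6 background: Nrp2 is floxed, and Csf1r, a gene of monocytes and macrophages, drives the inducible Cre. The test animals, called the Nrp2 knockout here, received tamoxifen every day after tumours could be felt, and for the control animals the labels name no tamoxifen. The drug and the deletion therefore cannot be told apart. Tumours were taken at 15 days, and RNA of 3 animals was pooled into 1 library per group. Age and sex of the animals are not given in the labels.

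An S100 protein has a pair of EF-hand loops that bind calcium, usually pairs with a second S100 chain, and changes shape with calcium so that it can grip a partner protein. S100a8 and S100a9 form calprotectin, which makes up much of the cytosol of neutrophils and is also made by monocytes. Once released, calprotectin withholds zinc and manganese from microbes and is a ligand of the receptors encoded by Tlr4 and Ager. The other members act mostly inside cells, on annexins, myosin and other targets, and several are made by macrophages, fibroblasts and epithelial cells. In bulk libraries such as these, fewer cells of a type and less RNA per cell cannot be told apart.

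With 1 library per group there is no replicate check, so no test was made and a difference below is between 2 libraries. Counted reads numbered 64153676 in the control and 68554172 in the knockout library. Levels are CPM, the deposited reads scaled to library size with TMM, and a ratio is knockout over control. The interval after each ratio is a 95% one (exact, Clopper-Pearson). For it, reads were divided by an estimate of how many came from 1 captured fragment, 47 in the control and 24 in the knockout library. They cover counting error only and not differences between animals. Nrp2, the targeted gene, was at 147 CPM in the control and 15.2 CPM in the knockout library, 9.69-fold lower (6.94 to 13.8). Itgam, the selection antigen, was at 294 and 422 CPM, and the pan-leukocyte gene Ptprc at 694 and 513 CPM.

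6 of the 8 genes lie within 184688 bases of chromosome 3 (GRCm38), from S100a1 to S100a9, and the other pair, S100a11 and S100a10, lies 2824766 bases further on. S100a8 (chr3:90668978-90670035, plus strand) and S100a9 (chr3:90692632-90695721, minus strand) are neighbours, 22596 bases apart. S100a1 (chr3:90511034-90514392, minus strand) and S100a13 (chr3:90514435-90524581, plus strand) point away from each other, with 42 bases between their starts. RefSeq promoter windows were found for 7 of the 8 genes, all but S100a10. The stretches before S100a8 and S100a9, the pair that makes calprotectin, and the gap shared by S100a1 and S100a13 are shown 5′ to 3′ on the strand of the gene named last, without any base that GENCODE M21 places in an exon. They come from RefSeq, GRCm38.p6, at chr3:90668821-90668977, chr3:90695722-90695971 and chr3:90514393-90514434, and capitals mark the motif letters described next.
S100a8: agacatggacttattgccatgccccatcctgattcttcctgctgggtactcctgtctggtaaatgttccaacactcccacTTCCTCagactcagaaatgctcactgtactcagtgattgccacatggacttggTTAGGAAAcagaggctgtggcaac
S100a9: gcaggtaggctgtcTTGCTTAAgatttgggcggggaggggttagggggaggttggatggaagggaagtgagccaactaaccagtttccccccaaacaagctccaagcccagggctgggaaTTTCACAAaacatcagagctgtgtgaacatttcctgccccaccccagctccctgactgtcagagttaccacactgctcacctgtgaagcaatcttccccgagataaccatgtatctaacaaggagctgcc
S100a1 to S100a13: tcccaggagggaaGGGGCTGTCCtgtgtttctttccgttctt

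Capitals mark letters of a C/EBP motif (TTNNGNAA) before S100a8 and S100a9, of a PU.1 motif (GAGGAA) before S100a8, and of an NF-kB motif (GGG, any 5 bases, then CC) in the gap between S100a1 and S100a13. Both strands were searched over the 250 bases before each RefSeq start. C/EBP letters were found before 2 of 7 members, S100a8 and S100a9, and before 36.8% of the 32851 windows of all genes. PU.1 letters were before 2 of 7 members, S100a8 and S100a11, and before 23.3% of all windows. NF-kB letters were before 5 of 7 members, all but S100a8 and S100a9, and before 45.8% of all windows. The letters TATAAA were before S100a8 and S100a4, 30 and 31 bases ahead of the start, and before 12.4% of all windows. Those before S100a8 lie in a part of its window that GENCODE M21 counts as exon and that is not shown. AP-1 letters (TGANTCA) and HIF letters (ACGTG) were before S100a11 only of the 7, and before 6.75% and 16.6% of all windows. No match of one motif overlapped a match of another in these 7 windows. The match in the gap counts for both S100a1 and S100a13, whose windows overlap by 104 bases. A match is a run of letters and not a measured binding site.

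Both calprotectin genes were higher in the knockout library. S100a8 (ENSMUSG00000056054) had 11295 reads in the control and 22153 in the knockout library (172 and 331 CPM), a ratio of 1.93 (1.67 to 2.23). S100a9 (ENSMUSG00000056071) had 19477 and 30088 reads, or 296 and 450 CPM, a ratio of 1.52 (1.36 to 1.70). Both intervals lie above 1. The excess was larger for S100a8 than for S100a9, by 1.27 times (95% conditional odds ratio interval 1.06 to 1.53, counting error only), so reads of S100a8 per read of S100a9 were 0.58 in the control and 0.736 in the knockout library. The pair together stood at 468 CPM in the control and 781 CPM in the knockout library, 1.67 times as much.

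The other 6 members did not move as one, and S100a10 was as far up as S100a8. S100a10 (ENSMUSG00000041959, chr3:93555080-93564643), also called p11, is an S100 that no longer binds calcium and sits with annexin A2 at the plasma membrane, where it captures plasminogen. It had 12385 reads in the control and 25049 in the knockout library (188 and 374 CPM), a ratio of 1.99 (1.73 to 2.28). Its ratio and that of S100a8 differed by a log2 value of -0.04 (S100a8 minus S100a10, -0.33 to 0.25). S100a6 (ENSMUSG00000001025, chr3:90612882-90624181), calcyclin, had 19340 and 30846 reads, or 294 and 461 CPM, a ratio of 1.57 (1.40 to 1.75). S100a4 (ENSMUSG00000001020, chr3:90603771-90606045), an activator of cell motility that binds non-muscle myosin, had 3027 and 4270 reads, or 46.1 and 63.8 CPM. Its ratio of 1.39 has an interval that starts near 1 (1.04 to 1.87), and with upper-quartile or total-count scaling the interval included no difference. Of the exonic bases of S100a4, 60.6% also belong to an exon of Gm42674 on the same strand, a gene with 0 reads in both libraries. The sources used here do not say how reads over 2 genes were counted, so the level of S100a4 is uncertain.

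S100a1, S100a11 and S100a13 were not higher beyond counting error. S100a1 (ENSMUSG00000044080), best known from heart and muscle, had 3379 reads in the control and 3686 in the knockout library (51.4 and 55.1 CPM), a ratio of 1.07 (0.804 to 1.44). S100a13 (ENSMUSG00000042312), which takes part in the release of Fgf1 and Il1a, proteins without a signal peptide, had 3247 and 2677 reads, or 49.4 and 40 CPM. It was 1.24-fold lower, with an interval that includes no difference (0.901 to 1.68). S100a11 (ENSMUSG00000027907, chr3:93520488-93526287), a partner of annexin A1, had 21624 and 18525 reads, or 329 and 277 CPM, and was 1.19-fold lower (1.06 to 1.34). It was the only member whose interval lies below 1. The neighbours S100a11 and S100a10, 28792 bases apart, thus went opposite ways, S100a10 by 2.36 times more than S100a11 (1.97 to 2.83). The divergent pair S100a1 and S100a13 differed by 1.32 times, with an interval that includes 1 (0.856 to 2.03).

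**Figure D1:**
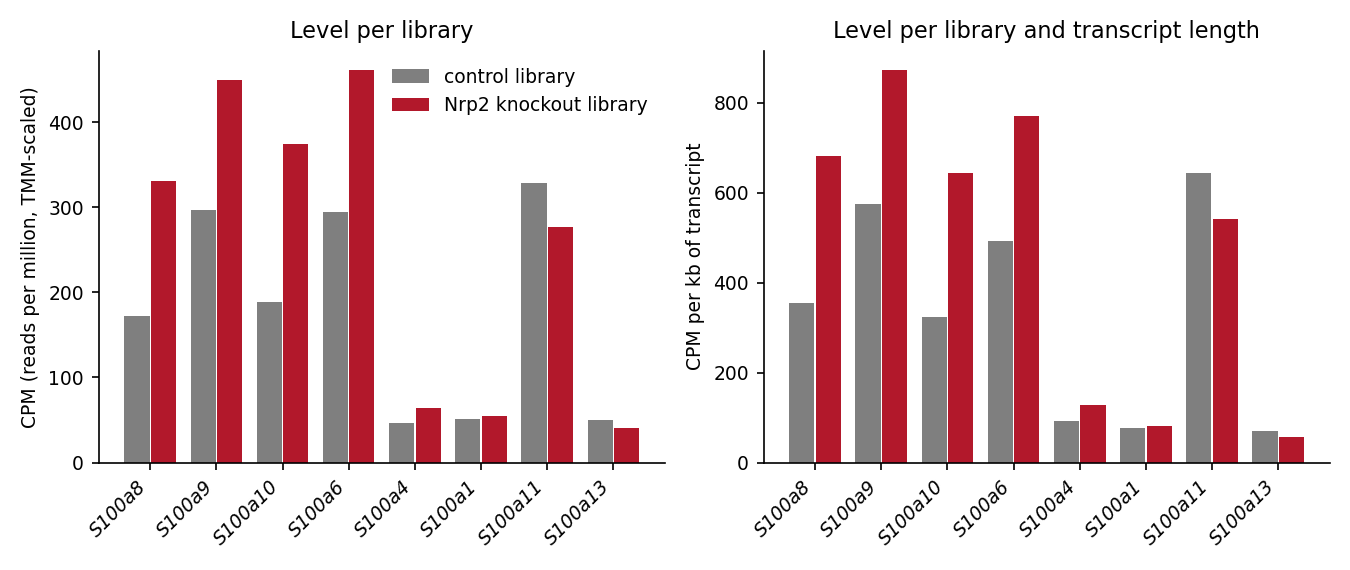
Levels of the 8 S100 genes in the control library (grey) and the Nrp2 knockout library (red), 1 library per group, as CPM on the left and as CPM per kb of transcript on the right, both axes linear and from 0. S100a8, S100a9, S100a10 and S100a6 stand higher in the knockout library, and S100a11, at 329 against 277 CPM, stands lower.

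Compared with the other genes read as deeply, the 4 highest members lay in the upper part of the range. At least 1.5-fold higher were 4 of 8 members (S100a8, S100a9, S100a10 and S100a6) and at least 1.5-fold lower 0 of 8. With upper-quartile or total-count scaling the first count was 2 of 8 (S100a8 and S100a10), and with TMM on genes of at least 1000 reads it was 3 of 8, without S100a9. Every member had 5000 or more reads when both libraries are summed. Of the 4670 genes read that deeply, 13% passed 1.5-fold upward and 7.3% passed it downward. Among all 14420 genes with at least 50 reads, whose ratios rest on fewer reads, these shares were 19.9% and 22.7%. No member reached 2-fold in either direction, which 3.23% of the well-read genes passed upward and 1.99% downward, and 10.9% and 14.7% of all 14420 genes. The median log2 ratio of the 8 members was 0.54, beside 0.06 for the well-read genes and -0.01 for all 14420 genes. S100a10 and S100a8 stood at the 96.7 and 95.9 percentile of the well-read genes, S100a6 and S100a9 at 89.5 and 87.6, and S100a4 at 81.6. S100a1 lay at 53.7, S100a11 at 21.9 and S100a13 at 18.8.

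The members' transcripts are short, 486 to 715 bases for the principal transcripts, and short transcripts were lower in the knockout library. The 100 other well-read genes with a principal transcript in that range had a median log2 ratio of -0.23. Of these, 5% passed 1.5-fold upward and 14% downward, and 2% and 1% passed 2-fold. S100a11 and S100a13, at log2 ratios of -0.25 and -0.30, were near that median, and the other 6 members lay above it, S100a1 with an interval that includes it. The part of transcript length in these ratios was not tested.

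**Figure D2:**
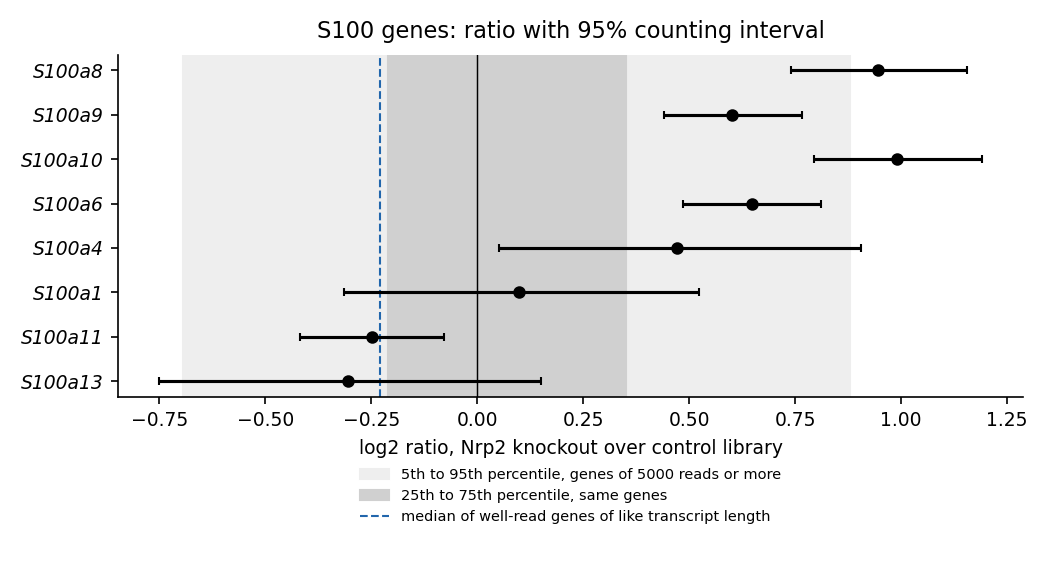
Log2 ratio of each S100 gene, knockout over control, with its 95% counting interval (points and bars), over the spread of all genes with at least 5000 reads (grey bands, 5th to 95th and 25th to 75th percentile). The dashed line is the median of well-read genes of like transcript length, at -0.23. S100a10 and S100a8 lie beyond the 95th percentile of 0.88, and S100a11 and S100a13 next to the dashed line.

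Set against the others, the calprotectin pair had a mean log2 ratio of 0.77 and the other 6 members a mean of 0.28, a difference of 0.50. The groups overlapped: the pair ran from 0.60 to 0.95 and the other 6 from -0.30 to 0.99, with S100a10 above both and S100a6 above S100a9. Leaving out each of the 6 in turn gave differences of 0.38 to 0.64. Members are genes of the same 2 libraries and not replicates, so the difference is a description. The pair took 32.8% of the reads of the 8 members in the control and 38.1% in the knockout library. The 8 genes together took 0.146% of all counted reads in the control and 0.2% in the knockout library, 1427 and 2052 CPM.

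Per kb of principal transcript, the order of the levels differed between the libraries. In the control library S100a11 led at 644 CPM per kb, followed by S100a9 at 575, S100a6 at 493, S100a8 at 354 and S100a10 at 324. In the knockout library S100a9 led at 872 CPM per kb, followed by S100a6 at 771, S100a8 at 681, S100a10 at 644 and S100a11 at 542. S100a4, S100a1 and S100a13 were the 3 lowest in both, at 92.5, 75.9 and 69.1 CPM per kb in the control and 128, 81.4 and 55.9 in the knockout library. With 1 library there is no spread over samples to separate neighbours in this order. It also depends on the length used: over all annotated exons, S100a6 stood at 215 and 337 CPM per kb, below S100a8 at 248 and 477. Ranked per kb among the genes with a principal transcript, S100a9 went from place 125 to 67, S100a8 from 203 to 99 and S100a11 from 104 to 131.

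Neutrophil genes, whose cells are the chief source of calprotectin, did not move as one with S100a8 and S100a9. Of 26 listed genes 23 had at least 50 reads, and 12 of these stood 2-fold or more above the control and 1 as far below it. The shares of all 14420 genes with at least 50 reads were 10.9% and 14.7%. Ly6g and Elane, without control reads, and Stfa1, with 51 and 207 reads, are among those of the 12 whose intervals include 1. At any size of ratio, 11 of the 23 genes had an interval above 1 and 4 below 1. The median log2 ratio was 1.45. It was 0.55 with Ly6g (0 and 96 reads) set to a bound of -0.58 that allows 3 unseen control fragments. Elane (0 and 51 reads), with too few reads for a bound, was then set to 0. The genes far up had few reads. Ngp, neutrophilic granule protein, had 2 reads in the control and 1033 in the knockout library, with an interval that starts at 5.47-fold higher. Stfa2, a stefin, had 2 and 320 reads, with an interval that starts at 1.53-fold higher. With 2 control reads, neither gene gives a fold beyond that bound. Lcn2, the iron-scavenging lipocalin of neutrophil granules, had 256 and 2467 reads and was 9.45-fold higher (4.06 to 28.1). Prtn3, proteinase 3, had 58 and 465 reads, with an interval that starts at 1.44-fold higher.

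The better-read genes of the neutrophil list went both ways. Bulk libraries do not show which cells made these reads. Of 9 listed genes with 5000 reads or more, 3 had an interval above 1, 3 below 1 and 3 an interval that includes 1. The genes named in this paragraph were chosen after their values were seen. Fpr2, a formyl peptide receptor gene, was at 57 and 104 CPM, a ratio of 1.82 (1.42 to 2.37), close to that of S100a8. Trem1, which encodes an activating receptor of neutrophils and monocytes, was at 240 and 353 CPM, a ratio of 1.47 (1.30 to 1.67), and Acod1 at 317 and 356 CPM, a ratio of 1.12 (1.003 to 1.26). The granulocyte growth factor receptor gene Csf3r was at 168 and 166 CPM, a ratio of 0.987 (0.842 to 1.16), and the chemokine receptor gene Cxcr2, with fewer reads, at 24.4 and 24.1 CPM. Retnlg was 1.24-fold lower (1.11 to 1.39), Il1r2 1.15-fold lower (1.01 to 1.30) and the gelatinase gene Mmp9 3.04-fold lower (2.66 to 3.49). The summed level of the list was 2016 CPM in the control and 1960 CPM in the knockout library. Mmp9 alone, at 389 and 128 CPM, was lower by more than the whole sum, so the rest of the list summed higher. S100a8 with S100a9 stood at 0.232 of the sum with Mmp9 in the control and 0.398 in the knockout library. Mpo and Ctsg, peroxidase and protease genes of immature neutrophils, had 0 reads in both libraries. Ly6g, Elane and Camp had 0 in the control library. The part of neutrophils in the ratios of S100a8 and S100a9 was not tested.

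**Figure D3:**
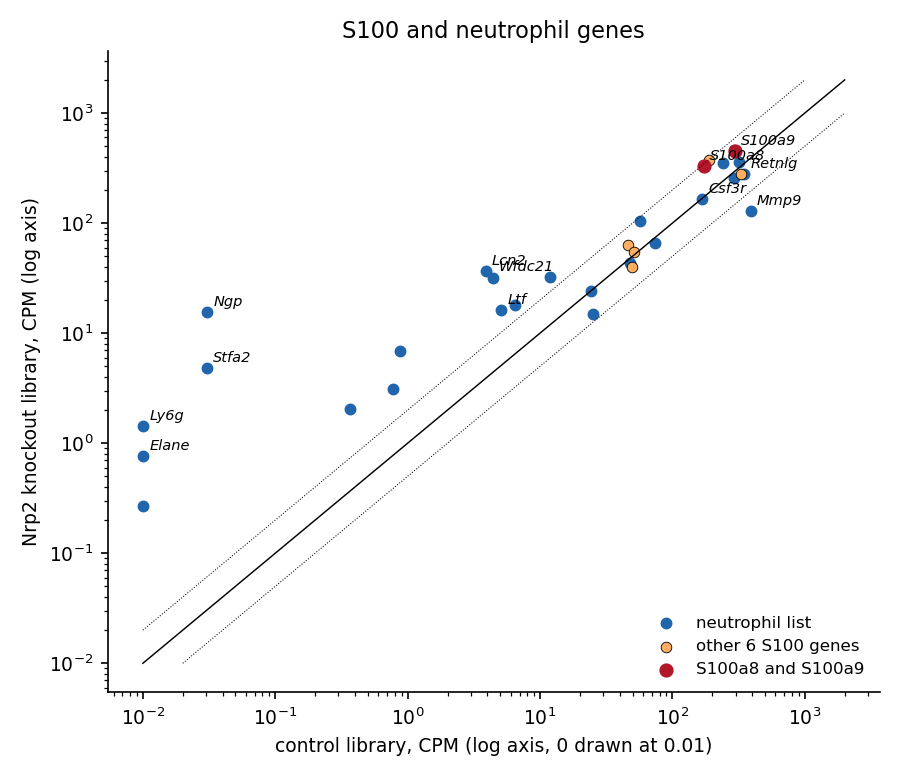
Level in the control library (x) against the Nrp2 knockout library (y), both in CPM on log axes, for the neutrophil list (blue), S100a8 and S100a9 (red) and the other 6 S100 genes (orange). The solid line is no difference and the dotted lines are 2-fold, with genes at 0 in the control library drawn at 0.01 and Mpo and Ctsg, at 0 in both, not drawn. The neutrophil genes far above the line have few reads, and Mmp9, at 389 and 128 CPM, lies below the lower dotted line.

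Monocytes and macrophages also make S100 proteins, and the summed levels of both lists were higher in the knockout library. The monocyte sum was 5122 CPM in the control and 12772 CPM in the knockout library, 2.49 times as much. The macrophage sum was 28187 and 36115 CPM, 1.28 times as much. Single genes carry these differences. Chil3 and Fn1 (1786 and 4066 CPM) together differed by more than the whole monocyte sum, so the other monocyte genes summed lower. Apoe, at 12388 and 18703 CPM, made up most of the macrophage difference. Of 16 monocyte genes 5 stood 2-fold or more above the control and 6 as far below it (median log2 ratio -0.43). Chil3, a chitinase-like protein, was at 338 and 6072 CPM, and Hp, haptoglobin, at 49.6 and 242 CPM. Cx3cr1 and Treml4, which mark patrolling monocytes, stood 8.56-fold lower (6.58 to 11.3) and 9.18-fold lower (3.99 to 24.8). Other monocyte genes also went both ways. Ly6c2 was 2.75-fold higher (2.15 to 3.57), while Ccr2 was 2.66-fold lower (2.37 to 2.98) and Plac8 3.15-fold lower (2.67 to 3.73). Of 20 macrophage genes 4 stood 2-fold or more above the control and 1 as far below it, and 10 and 1 passed 1.5-fold (median 0.56). For all 14420 genes the shares up and down were 10.9% and 14.7% at 2-fold, and 19.9% and 22.7% at 1.5-fold. Gpnmb was 7.56-fold higher (6.21 to 9.29), Mertk 3.58-fold higher and Vsig4 7.72-fold higher, and Timd4 2.73-fold lower. The lists of eosinophil, conventional dendritic, T, B and NK cell genes were mostly lower, with 4 of 7, 9 of 12, 12 of 13, 7 of 8 and 7 of 9 measured genes at least 2-fold lower and 1, 0, 0, 0 and 0 at least 2-fold higher. Their summed levels were 2.08, 1.94, 3.1, 9.4 and 2.98 times lower in the knockout library. Among their largest differences, Cd209a of dendritic cells was 20.6-fold lower (9.14 to 56.7), Ighm of B cells 10.1-fold lower (6.94 to 15.1) and Alox15 of eosinophils 3.87-fold lower (3.00 to 5.02). Ear6, an eosinophil ribonuclease gene, went the other way and was 5.51-fold higher (2.0 to 21.2). The part of these cells in the S100 ratios was not tested.

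Other S100 genes were near the limit of detection. Of 10 further family members 9 were in the table, and S100a3, S100a7a, S100g and S100z had 0 reads in both libraries. Where no read was seen, as many as 3 fragments remain possible, that is 141 control reads or 72 knockout reads, so S100a2 with 0 and 7 reads, S100a5 with 55 and 0 and S100b with 71 and 33 give no fold. The epithelial genes S100a14 and S100a16 had 253 and 87 reads and 541 and 377 reads, and the intervals of both ratios include 1 (0.063 to 1.56 and 0.30 to 1.61). Epithelial tumour cell genes were low, and their sum over 11 genes was lower in the knockout library, at 202 and 131 CPM. At least 2-fold lower were 5 of 9 measured epithelial genes and higher 0, where 14.7% and 10.9% of all 14420 genes were. On the epithelial list Krt19 was 2.57-fold lower (1.39 to 4.85), Cdh1 2.06-fold lower (1.54 to 2.75) and Tspan8 3.61-fold lower (1.10 to 13.6), while Muc1 had 242 and 9 reads. Intervals lay below 1 for 4 of the 9 and above 1 for 0. The ratios of Krt8 (0.571 to 1.16), Krt18 (0.664 to 1.26) and Krt7 (0.602 to 3.48) had intervals that include 1.

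S100a4, once named fibroblast-specific protein, had a ratio of 1.39 (1.04 to 1.87) while fibroblast genes were mostly lower. Its interval included no difference with upper-quartile or total-count scaling, and its level is uncertain. Of 11 fibroblast genes 4 stood 2-fold or more below the control and 1 as far above it (median log2 ratio -0.87). Their summed level was 401 CPM in the control and 237 CPM in the knockout library. For this list and those that follow, the shares of all 14420 genes were 14.7% below and 10.9% above. Col6a3, a collagen chain, was 3.87-fold lower (1.89 to 8.35) and Thy1, which T cells also express, 3.47-fold lower (2.07 to 5.97). Pdgfrb and Lum had 301 and 131 reads and 140 and 68 reads, with intervals that include 1. Skin keratinocytes carry several S100 proteins, and their genes were few in reads: 1859 summed over 10 genes in the control and 400 in the knockout library. Of 5 measured keratinocyte genes 1 was higher and 4 were lower by 2-fold or more, but only 1 interval lay below 1 and 0 above. Krt14 was 8.3-fold lower (3.72 to 21.2). Sprr1a had 155 and 51 reads, with a ratio interval that includes 1 (0.030 to 2.53), and Lor, Flg and Dsg1a had 0 in both. Of 9 endothelial genes 7 were at least 2-fold lower and 0 higher. Intervals lay below 1 for 4 of these 9 and above 1 for 0. Pecam1 was 3.78-fold lower (2.61 to 5.53), Kdr 4.01-fold (1.32 to 14.1), Plvap 5.33-fold (1.33 to 29.9) and Esam 8.92-fold lower (1.35 to 180). The part of these cells in the S100 ratios was not tested.

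Among receptors for released S100 proteins, Tlr4 was higher beside S100a8 and S100a9. Tlr4, which encodes the toll-like receptor that calprotectin engages, was at 71.2 and 130 CPM, a ratio of 1.82 (1.46 to 2.30). Myd88, its adaptor, was at 134 and 89.4 CPM, a ratio of 0.667 (0.55 to 0.811), just short of 1.5-fold lower. Ager, the gene of the receptor RAGE, had 77 and 133 reads, too few for an interval that excludes 1. Emb, embigin, a further receptor reported for calprotectin, was at 331 and 492 CPM, a ratio of 1.49 (1.34 to 1.65). Of the 12 genes of this list 2 were at least 1.5-fold higher (Tlr4 and Ager) and 0 at least 1.5-fold lower, where 19.9% and 22.7% of all 14420 genes were, with a median log2 ratio of 0.22.

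The intracellular partners of the S100 proteins went several ways. Anxa2, which encodes the partner of S100a10, was at 613 and 638 CPM, a ratio of 1.04 (0.959 to 1.13), so S100a10 per kb relative to Anxa2 per kb was 0.765 in the control and 1.46 in the knockout library. Ahnak, a giant scaffold protein bound by that complex, was at 356 and 789 CPM, a ratio of 2.22 (2.01 to 2.45). Anxa1, which encodes the partner of S100a11, was at 227 and 420 CPM, a ratio of 1.85 (1.63 to 2.10), while S100a11 was lower. Myh9, the myosin heavy chain that S100a4 binds, was at 623 and 618 CPM, and Cacybp, which binds S100a6, at 46.4 and 43.8 CPM. Trp53, which encodes p53, a target of several S100 proteins, was 2.17-fold lower (1.49 to 3.18). Fgf1 had 0 reads in the control and 214 in the knockout library, with an interval that includes no difference, and Il1a was at 446 and 491 CPM. Of 17 measured genes of this list 2 stood 2-fold or more above the control and 1 as far below it, Fgf1 being counted among the higher. The median log2 ratio was 0.14. For all 14420 genes the shares were 10.9% and 14.7%. Anxa2, Myh9, Cacybp and Il1a are named here beyond the size rule, as the partners of single members.

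S100a10 is a plasminogen receptor, and the plasminogen system differed between the libraries in both directions. Plaur, which encodes the urokinase receptor, was at 370 and 766 CPM, a ratio of 2.07 (1.88 to 2.28). Plau, which encodes urokinase itself, was 2.39-fold lower (2.03 to 2.81), Plat, the tissue activator, 4.01-fold lower (1.54 to 11.6) and the inhibitor gene Serpinb2 4.33-fold lower (2.90 to 6.59). Plg, plasminogen, a product of the liver, had 0 reads in both libraries. Of 7 measured genes 1 stood 2-fold or more above the control and 3 as far below it, with a median log2 ratio of -0.21. The shares of all 14420 genes that far up and down were 10.9% and 14.7%.

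Other genes of EF-hand proteins share the calcium-binding fold. Of 20 genes 1 stood 2-fold or more above the control and 3 as far below it, near the 10.9% and 14.7% of all 14420 genes. The median log2 ratio was -0.21, beside -0.01 for those genes. At 1.5-fold 1 EF-hand gene was higher and 7 were lower, beside 19.9% and 22.7% of all 14420 genes. The shares of the well-read genes were 13% and 7.3%. By interval, 1 lay above 1 and 10 lay below 1. Gca, grancalcin of granulocytes, had 253 and 1047 reads and was 4.06-fold higher (1.66 to 12.5). Aif1, which encodes Iba1 of macrophages, was at 415 and 161 CPM, 2.58-fold lower (2.28 to 2.93). Tesc and Rcn1 were 4.30-fold (1.32 to 16.8) and 2.52-fold (1.45 to 4.42) lower.

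Transcription factor genes linked to the calprotectin pair in myeloid cells were mostly level. Cebpa, a C/EBP factor gene of the granulocyte and monocyte lineage, was at 218 and 436 CPM, a ratio of 1.999 (1.76 to 2.27), just short of 2-fold. Cebpe, the C/EBP factor of late granulocytes, had 437 and 124 reads and was 3.58-fold lower (1.10 to 13.3), and Gfi1 had 177 and 35 reads with an interval that includes 1. Nfkb1 was at 201 and 134 CPM, 1.51-fold lower (1.28 to 1.76). Of 12 genes 0 stood 2-fold or more above the control and 2 as far below it, where 10.9% and 14.7% of all 14420 genes did. The median log2 ratio was -0.00056.

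**Figure D4:**
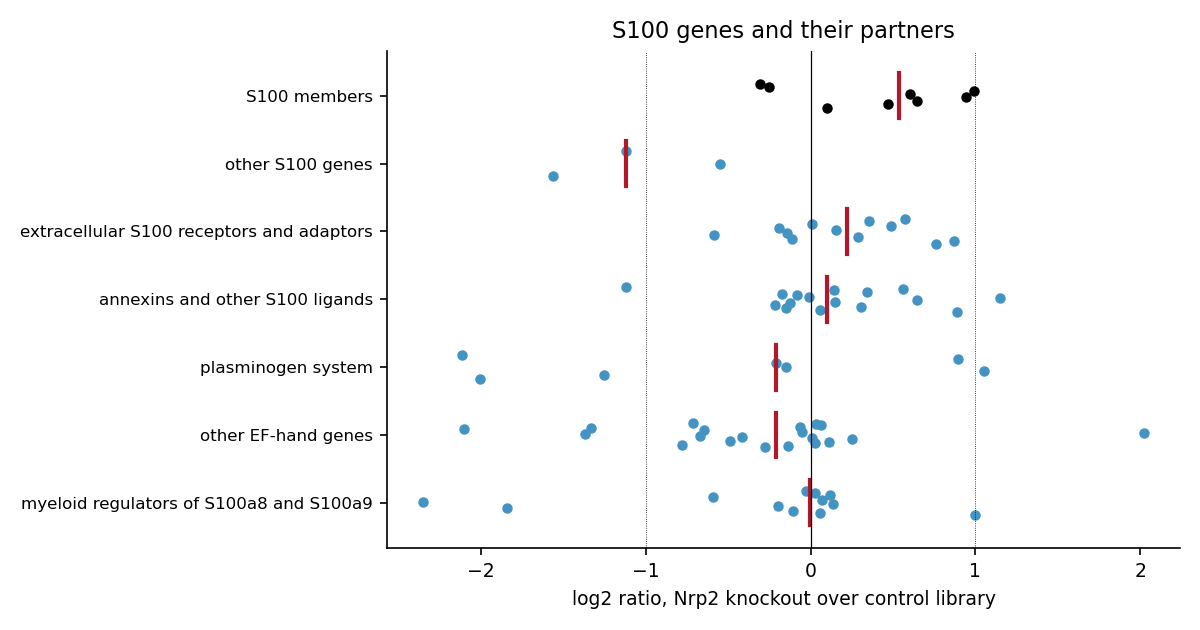
Log2 ratio, knockout over control, of the 8 S100 genes (black) and of 6 lists of related genes (blue), for genes with at least 50 reads and reads in both libraries. Red bars are medians of the points drawn, and thin grey lines are 2-fold. The S100 genes run from -0.30 to 0.99, and the plasminogen and EF-hand lists reach further on both sides.

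The authors' deposited table gave close ratios and no adjusted call. In the authors' deposited table the log2 fold change was 0.96 for S100a8 (SE 0.51, p-value 0.0586), 0.61 for S100a9 (SE 0.45, p-value 0.17) and 1.001 for S100a10 (SE 0.51, p-value 0.0499). The adjusted p-value in the authors' deposited table was 0.999872 for all 8 members and 0.331 for Nrp2. Of the 18864 genes with an adjusted p-value there, 0 were under 0.05 and 794 had an unadjusted p-value under 0.05. These values come from 1 library per group, so no spread between samples stands behind them.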

How the data were processed

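A TruSeq stranded kit for mRNA was used (labels' protocols). Tools named in the submitters' processing notes are cutadapt, HISAT2 and featureCounts, and the build is GRCm38; they give neither versions nor options. The count table the authors deposited holds raw whole-number counts for each Ensembl identifier. A second table deposited by the authors holds normalised signal for each library, log2 fold changes with standard errors, a score (fold change over error) and p-values, raw and adjusted. The sources used here do not give the tool behind the second table, or whether strand and multi-mapping reads entered the counting.

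Symbols (49326 of 49585 identifiers matched), positions and lengths came from GENCODE M21 (GRCm38), and promoter windows from RefSeq (GRCm38.p6). Libraries were scaled with TMM in edgeR 4.0.16 (R 4.3.3) on genes whose 2 libraries held 50 counts or more, with factors of 1.02 and 0.976. Log2 ratios used a prior of 0.5 counts. Reads per fragment were the median reads of genes with over 4 reads in one library and 0 in the other (867 and 2114 genes). PCR duplicates are counted, since no molecular identifiers are named. The scripts were tested on simulated data. Alternatives were DESeq2 1.42.0 size factors, upper-quartile and total-count scaling, a prior of 5, and other count minimums. Genes were named by a rule: all S100 genes, Nrp2, Itgam, and of each list up to 4 with the largest absolute ratio among those with at least 200 counts, plus the 3 nearest genes to S100a8 and to S100a9. Names beyond this rule were chosen for their role or after their values were seen. The members and the gene lists were chosen with earlier results of these data known.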

Additional observations from a re-analysis of the deposited data

How the results depend on the processing

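Under the other scalings, prior and count minimums the log2 ratios of the 8 S100 genes and of Nrp2 kept their direction and stayed within their counting intervals, but calls were lost. Past 1.5-fold upward were 4 members with TMM and 2 with upper-quartile or total-count scaling, where S100a6 (log2 ratios 0.57 and 0.58) and S100a9 (both 0.53) fell short. With at least 1000 reads there were 3, S100a9 being at 0.56. The interval of S100a4 began, in log2, at -0.02 with upper-quartile or total-count scaling, so members with an interval above 1 were 4 and not 5. S100a8 ran from 0.87 to 0.95, S100a9 from 0.53 to 0.61, S100a10 from 0.916 to 0.997 and S100a6 from 0.57 to 0.65. S100a4 ran from 0.40 to 0.48, S100a1 from 0.02 to 0.11, S100a11 from -0.32 to -0.24 and S100a13 from -0.38 to -0.30. The difference between S100a8 with S100a9 and the other 6 was 0.50 throughout. Scaling cannot move it, because the factor of each library cancels out of a difference of log2 ratios. Intervals on reads as counted were narrower, and on them S100a1 lay above 1 (1.02 to 1.12) and S100a13 below 1 (0.769 to 0.852). The counts of genes past a fold moved with the count minimum, which sets how many genes are counted. At least 2-fold higher and lower were 1566 and 2118 genes with at least 50 reads, 4131 and 3272 without a minimum, 366 and 405 with at least 1000 reads, and 151 and 93 with at least 5000 reads, a minimum chosen after seeing the data. At least 1.5-fold higher and lower were 2873 and 3273 genes with at least 50 reads, 5549 and 4571 without a minimum, 1172 and 1125 with at least 1000 reads, and 607 and 341 with at least 5000 reads. No library could be left out with 1 per group. No paired analysis was possible because each group is 1 library, which leaves no spread between pairs.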

Other observations

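The genes nearest to S100a8 in level in both libraries, among those with at least 5000 reads, were Per1, a clock gene, at 164 and 316 CPM, Cd38, an ectoenzyme gene, at 163 and 310 CPM, and Slc43a2, an amino acid transporter gene, at 184 and 311 CPM. Their distances from S100a8 were 0.10, 0.12 and 0.13 on the log2 scale over 2 libraries. Nearest to S100a9 were S100a6 at a distance of 0.04, Slfn2 at 0.04, with 300 and 463 CPM, and Rnh1 at 0.05, with 287 and 442 CPM. Many genes lie this close with 2 libraries, and the likeness is of levels only.

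Of 12 other genes with at least 5000 reads within 500 kb of the stretch from S100a1 to S100a9, 0 stood 1.5-fold or more above the control and 2 as far below it, where 13% and 7.3% of all well-read genes were. Their log2 ratios ran from -0.62 to 0.58 with a median of -0.08. With 12 genes, these counts lie near those shares. Gatad2b was at 36.7 and 55 CPM, a ratio of 1.497 (1.085 to 2.10), Snapin at 50 and 68.5 CPM, a ratio of 1.37 (1.04 to 1.83), Ilf2 at 46.1 and 30.3 CPM, and Chtop, next to S100a1, at 77.3 and 79.3 CPM. These 4 were chosen after their values were seen.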
